A study of Mus musculus with 14 samples.

Results

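The Rab genes encode small GTPases of the Ras superfamily. They were taken as the protein-coding genes of GENCODE release M21 (build mm10) whose symbol is Rab, a number and optional letters. Of 21938 protein-coding genes on the chromosomes, 61 matched, and 2 of them, Rab3ip and Rab5if, were left out because their names denote interacting proteins. The remaining 59 genes are the Rab genes described here. From general knowledge of where they act, 28 were classed as broad (used by most cell types), 17 as tissue-restricted (neurons, secretory, epithelial, pigment or blood cells) and 14 as neither.

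The data are sites of monomethylated lysine 4 of histone H3 (H3K4me1), measured by ChIP-seq in NG3 cells. NG3 is 1 clone of immortalized mouse embryo fibroblasts (iMEF) whose Ash2l alleles were floxed and which carry Cre-ER, a recombinase that can be switched on. The endogenous Ash2l was deleted, and a lentivirus supplies human ASH2L, a core subunit of the H3K4 methyltransferase complexes, fused to FKBP and HA tags (FKBP-HA2-ASH2L), which all groups carry and which dTAG-13 sends to degradation. Control cells without dTAG-13 and cells kept in it for 30 min, 2 h, 4 h, 8 h or 16 h were measured in 2 replicates each, which gives 12 H3K4me1 libraries, with 2 input libraries in addition. From all samples together, 160144 sites were deposited, each with its chromosome, start and end. The table gives no read count, signal or time point, so a site may be present in only some of the samples. For the same reason no fold change or replicate spread can be given, and the depth behind each site is unknown. The authors report that sites with increased H3K4me1 after dTAG-13 lay nearly all at promoters. Which sites near a TSS were already present in the control cells cannot be told here. The 95% Wilson intervals beside shares cover the counting of genes alone, and no test was made between groups of genes.

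Rab proteins switch between an inactive, GDP-bound and an active, GTP-bound form. Exchange factors load them with GTP, GTPase-activating proteins turn them off, and the active form gathers effectors such as motor and tethering proteins on the membrane of 1 compartment, so that each Rab marks a step of vesicle transport. H3K4me1 is best known from enhancers, where it lies with open chromatin. At active promoters it typically lies to either side of the TSS, with the trimethylated form closer to the TSS. In these cells the authors describe like patterns at TSSs for the trimethylated form before dTAG-13 and H3K4me1 after it. Both showed little signal right at the TSS. CpG islands, the GC-rich stretches over many promoters, are bound by complexes that methylate H3K4.

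The reference sequence just before the start helps to see what lay inside and outside the sites. RefSeq promoter windows of GRCm38.p6 (300 bases, 250 of them before the start) were matched for 48 of the 59 genes. Rab2a, Rab4a, Rab7b, Rab18, Rab26, Rab27b, Rab30, Rab36, Rab37, Rab38 and Rab44 had no entry. Shown are the 250 bases before the start of 6 genes, 5′ to 3′, with each CpG in capitals. Rab8a (chr8:72160950-72161199, plus strand), Rab8b (chr9:66919706-66919955, minus strand) and Rab10 (chr12:3309970-3310219, minus strand) stand for genes whose TSS lay free of sites between flanking sites, and none of their 250 bases was in a site. Rab31 (chr17:65772753-65773002, minus strand) stands for a TSS inside a site, which held all 250 bases. Rab39b (chrX:75578232-75578481, minus strand) and Rab33a (chrX:48519035-48519284, plus strand) are tissue-restricted genes without a site in the 3 kb before the TSS.
Rab8a: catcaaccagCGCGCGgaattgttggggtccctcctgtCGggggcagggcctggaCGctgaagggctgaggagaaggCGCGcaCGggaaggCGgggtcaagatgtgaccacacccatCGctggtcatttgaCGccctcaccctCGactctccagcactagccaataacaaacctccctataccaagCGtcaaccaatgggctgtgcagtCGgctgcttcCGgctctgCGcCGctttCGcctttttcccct
Rab8b: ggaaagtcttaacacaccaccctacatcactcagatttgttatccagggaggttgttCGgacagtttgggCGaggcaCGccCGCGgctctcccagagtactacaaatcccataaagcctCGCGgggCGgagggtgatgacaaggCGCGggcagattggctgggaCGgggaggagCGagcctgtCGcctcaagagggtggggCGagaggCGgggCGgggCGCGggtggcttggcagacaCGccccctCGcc
Rab10: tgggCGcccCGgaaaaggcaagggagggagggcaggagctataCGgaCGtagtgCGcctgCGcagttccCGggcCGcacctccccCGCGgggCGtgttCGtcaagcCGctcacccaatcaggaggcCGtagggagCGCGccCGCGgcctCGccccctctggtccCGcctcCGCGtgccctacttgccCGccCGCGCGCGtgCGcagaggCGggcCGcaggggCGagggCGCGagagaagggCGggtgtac
Rab31: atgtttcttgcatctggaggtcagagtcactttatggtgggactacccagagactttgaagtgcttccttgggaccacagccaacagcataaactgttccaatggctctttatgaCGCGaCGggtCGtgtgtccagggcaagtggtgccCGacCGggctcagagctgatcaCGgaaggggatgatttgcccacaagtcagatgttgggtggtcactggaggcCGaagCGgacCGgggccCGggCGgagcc
Rab39b: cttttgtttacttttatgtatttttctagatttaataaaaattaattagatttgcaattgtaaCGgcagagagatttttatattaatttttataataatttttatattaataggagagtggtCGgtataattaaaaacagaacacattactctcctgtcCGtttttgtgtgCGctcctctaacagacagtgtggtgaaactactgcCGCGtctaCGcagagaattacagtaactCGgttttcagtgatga
Rab33a: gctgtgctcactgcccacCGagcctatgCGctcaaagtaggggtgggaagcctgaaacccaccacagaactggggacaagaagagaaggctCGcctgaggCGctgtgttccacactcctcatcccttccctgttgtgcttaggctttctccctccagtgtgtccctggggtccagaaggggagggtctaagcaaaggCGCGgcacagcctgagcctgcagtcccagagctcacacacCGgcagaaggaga

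The 6 stretches differed in CpG content. Rab10 held 34 CpGs at 74.8% GC, Rab8b 20 at 64.4% and Rab8a 18 at 61.6%. Rab31 held 12 CpGs at 57.6% GC, Rab39b 8 at 31.6% and Rab33a 7 at 60.4%. Rab39b was AT-rich, with 3 copies of the TATA-box letters in its window. Over all matched windows the counts before the start overlapped between layouts. They ran from 10 to 39 CpGs (median 22) in the 14 with a free, flanked TSS and from 3 to 40 (median 14) in the 21 with a covered TSS. The 40 belonged to Rab6b, whose RefSeq start lies 287 bp downstream of the TSS that gave the layout. The covered Rab15, Rab3c and Rab17 windows were displaced by 384, 790 and 1994 bp. Among covered windows whose RefSeq start lay within 100 bp of that TSS, the highest was 27, at Rab24.

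Short motifs were counted in the 300-base windows on both strands, and none of the motifs searched contains another. The RefSeq starts in 40 of the 48 windows lay within 100 bp of the TSS used below. A match is a description of the letters only. GGGCGG, the core of the GC box, was found in 34 of 48 Rab windows (70.8%). This compares with 35.7% of all 32851 promoters of the table and 48.2% of the windows of 16521 protein-coding genes. These letters hold a CpG, and no share was counted among promoters with a CpG island alone. CCAAT was found in 23 (47.9%), against 37.4% of all promoters and 38.8% of those of protein-coding genes, and it was held by 11 of 14 windows with a free, flanked TSS and 6 of 21 with the TSS inside a site. By class, 16 of 25 broad and 3 of 12 tissue-restricted windows held it. Rab8a itself had CCAAT at 2 places and no GGGCGG, while Rab22a held GGGCGG at 7 places. The E-box CACGTG was found in 5 windows (10.4%, against 7.15% of all promoters and 8.09% of those of protein-coding genes). The ETS core CCGGAAG was also found in 5, which is above the 8.86% of all promoters and below the 12.3% of those of protein-coding genes. The cyclic AMP response element TGACGTCA was found in 2 (4.17%, against 1.79% and 2.42%) and TATAAA in 4 (8.33%, against 13.6% and 12.9%).

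Most Rab genes had an H3K4me1 site close to the TSS. The TSS is taken as the most upstream start of the gene, and positions are counted from it at 0 in the direction of transcription. The principal transcript started at the same base in 40 Rab genes, within 100 bp in 49, and taking its start left the layout at the TSS the same in 55. A site lay within 1 kb of the TSS in 53 of 59 Rab genes, or 89.8% (79.5 to 95.3%), against 63.9% of all protein-coding genes. Within 3 kb it was 55 of 59, or 93.2% (83.8 to 97.3%), against 68.7%. The 4 Rab genes without any site within 3 kb were Rab3a, which drives synaptic vesicle release, Rab25, an epithelial recycling Rab, Rab44, found in blood cell granules, and Rab19.

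The share moved with CpG islands. An island lay within 1 kb of the TSS in 49 Rab genes, or 83.1% (71.5 to 90.5%), against 54.8% of all protein-coding genes. With an island, 48 of 49 Rab genes had a site within 1 kb (98.0%, 89.3 to 99.6%), against 92.7% of protein-coding genes with an island. Without an island it was 5 of 10 (50.0%, 23.7 to 76.3%), against 28.8%. Among genes with an island, the Rab genes were therefore closer to the background than the count over all genes shows. Without an island, the 28.8% lies inside the wide interval of the 10 Rab genes. The exception among island genes was Rab3a, with an island of 800 bp and no site closer than position -80738 or 93146.

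Sites at the TSS fell into a few layouts. The TSS lay inside a site in 27 Rab genes (45.8%, 33.7 to 58.3%), against 39.5% of all protein-coding genes and 56.6% of those with an island. It lay free of sites, with a site within 1 kb on both sides, in 15 (25.4%, 16.1 to 37.8%), against 13.7% of all and 23.4% of those with an island. A further 11 (18.6%, 10.7 to 30.4%) had a site within 1 kb downstream only, against 8.69% of all and 11.5% of those with an island. None had a site within 1 kb upstream only, a layout that 1.96% of all protein-coding genes had. The map of sites by gene shows each layout.

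**Figure D1:**
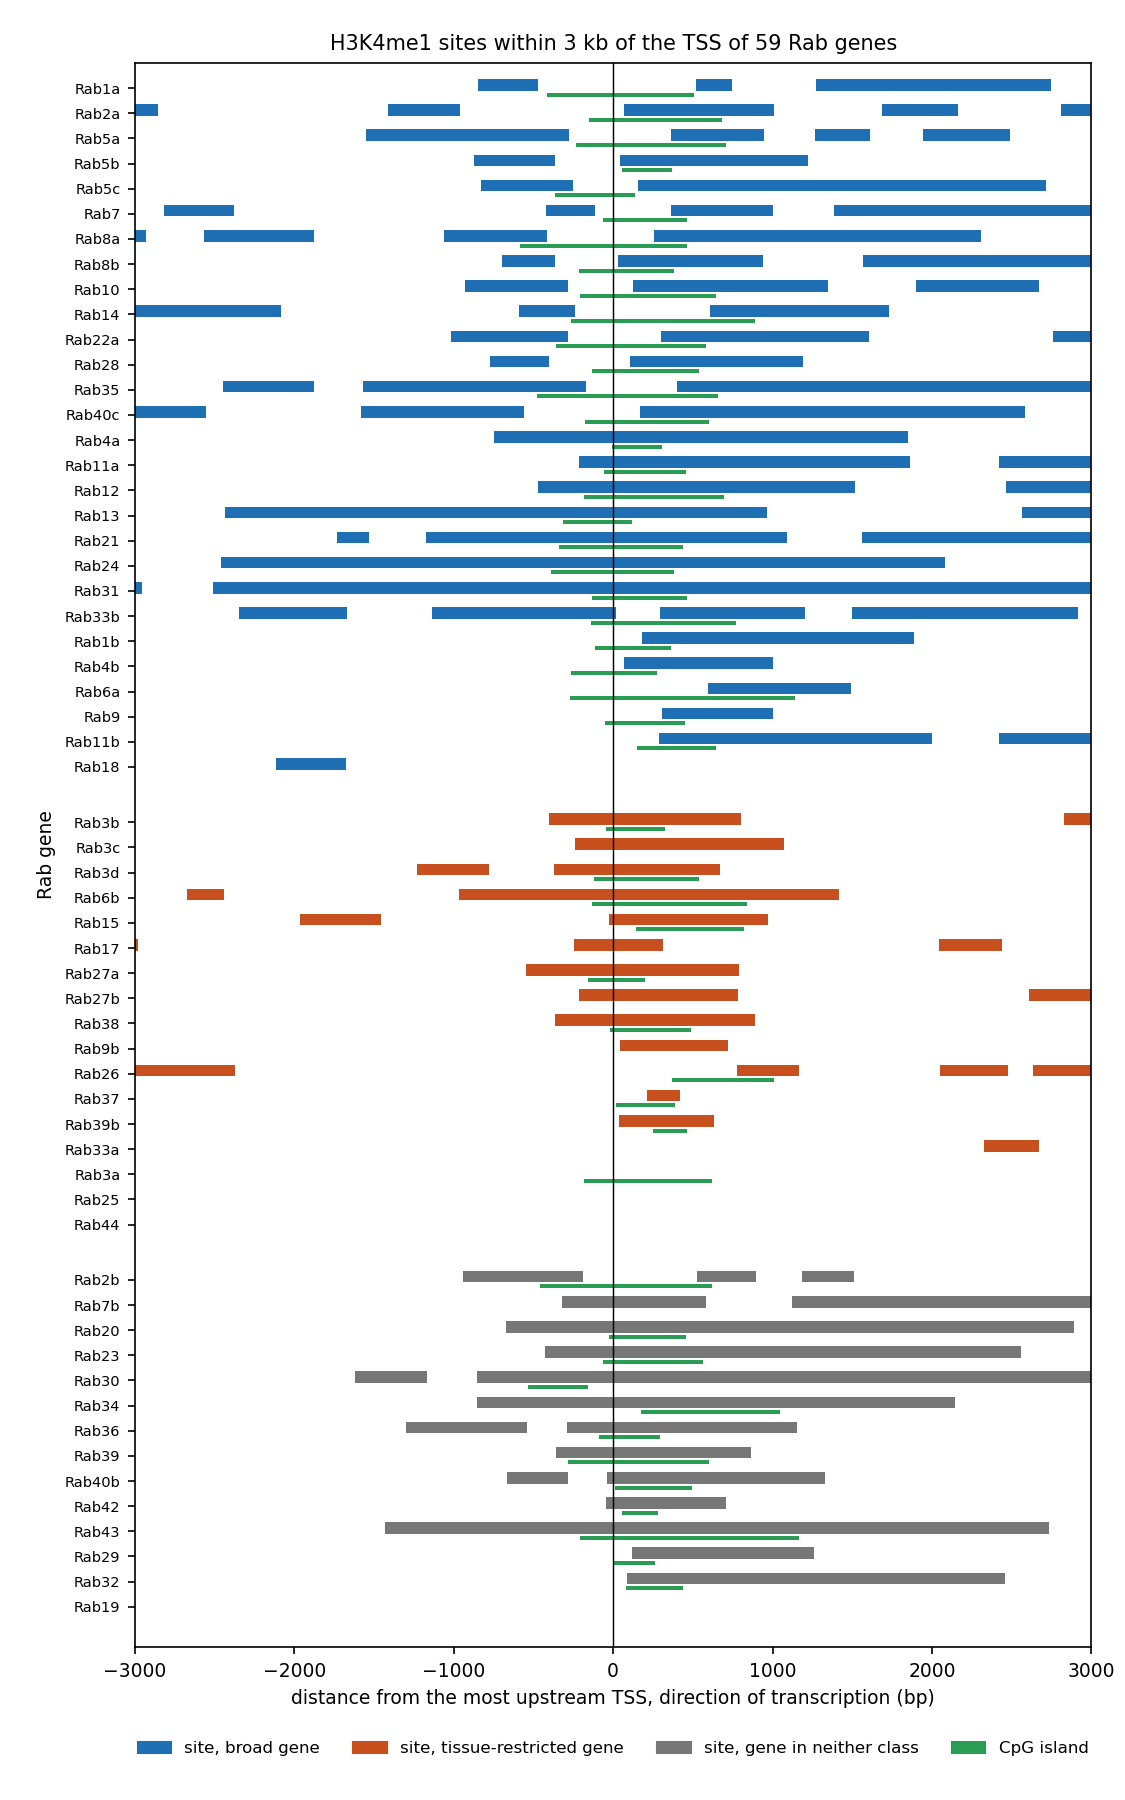
H3K4me1 sites (thick bars, coloured by class) and CpG islands (thin green bars) from -3000 to 3000 bp around the most upstream TSS of 59 Rab genes, each row a gene, with sites cut at the edges of the window. In the top group, 14 of 28 broad genes show a gap over the TSS between flanking sites, while the bars of the 9 covered tissue-restricted genes lie across the TSS.

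The layouts differed between the classes. Of the broad genes, 14 of 28 (50.0%, 32.6 to 67.4%) had a free, flanked TSS and 8 had the TSS inside a site. Of the tissue-restricted genes, 0 of 17 had a free, flanked TSS, for which the Wilson interval reaches 18.4%, and 9 of 17 (52.9%, 31.0 to 73.8%) had the TSS inside a site. Of the 14 genes in neither class, Rab2b was free and flanked, and 10 (71.4%, 45.4 to 88.3%) had the TSS inside a site. Many of the flanks were narrow. With only sites of at least 500 bp, 8 of 28 broad genes and 0 of the others kept the layout. Rab1a, Rab2a, Rab2b, Rab7, Rab8b, Rab14 and Rab28 lost it. The share of protein-coding genes with the layout was not counted under this filter. How the broad genes compare with them among wide sites is therefore not known here.

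CpG islands also differed between the classes, and their part in the layouts was not tested. An island was present in 27 of 28 broad and 10 of 17 tissue-restricted genes. Among genes with an island, the free, flanked layout was found in 14 of 27 broad Rab genes (51.9%, 34 to 69.3%). It was found in 0 of 10 tissue-restricted (interval up to 27.8%) and 1 of 12 other Rab genes (1.49 to 35.4%). With sites of all widths, 23.4% of all protein-coding genes with an island had it. This share lies inside the intervals of the tissue-restricted and the other genes. The median number of CpGs within 500 bp of the TSS was 77 in the broad and 39 in the tissue-restricted genes, and the median island length was 776 and 575 bp. Within the broad genes the median island was 842 bp where the TSS was free and flanked and 686 bp where it was covered.

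**Figure D2:**
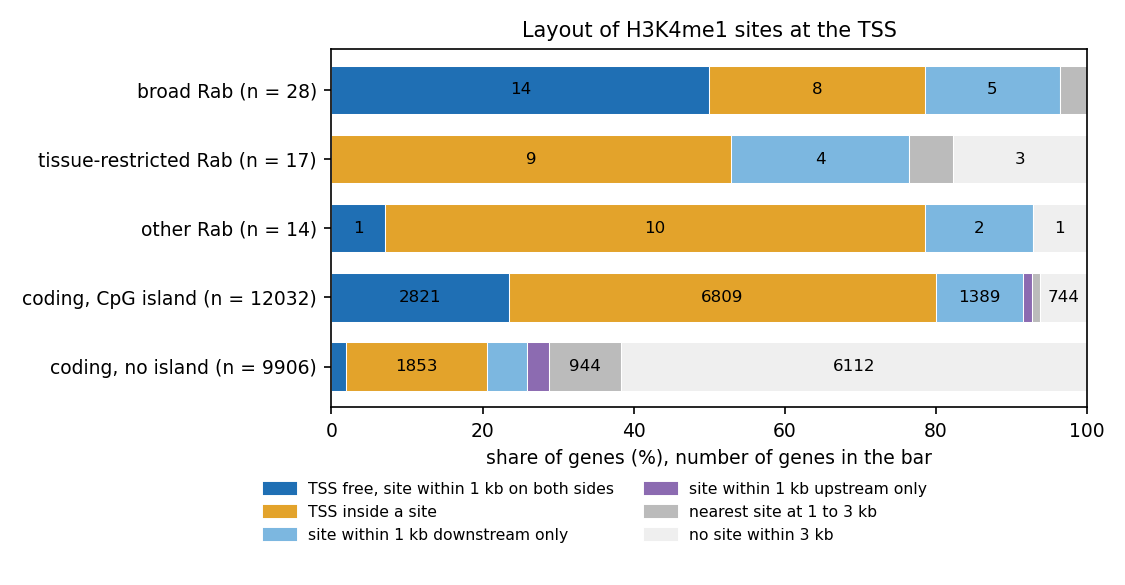
Share of genes (%) in each layout of H3K4me1 sites at the TSS, for Rab genes by class and for protein-coding genes with and without a CpG island, with the number of genes in each bar. The free, flanked layout takes 14 of 28 broad genes, none of 17 tissue-restricted genes and 2821 of 12032 protein-coding genes with an island.

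The summed profile shows the same contrast. In the 100 bp just before the TSS, sites covered 28.6% of the bases of broad genes and 48.6% of those of tissue-restricted genes, against 55.3% for protein-coding genes with an island. In the broad genes coverage reached 61.7% at -600 to -501 bp and 96.2% at 600 to 699 bp, so that the TSS lay in a trough between a lower upstream and a higher downstream shoulder. In the tissue-restricted genes it reached 70.0% at 200 to 299 bp and had fallen to 9.76% at 1100 to 1199 bp, a single narrow peak just past the TSS.

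**Figure D3:**
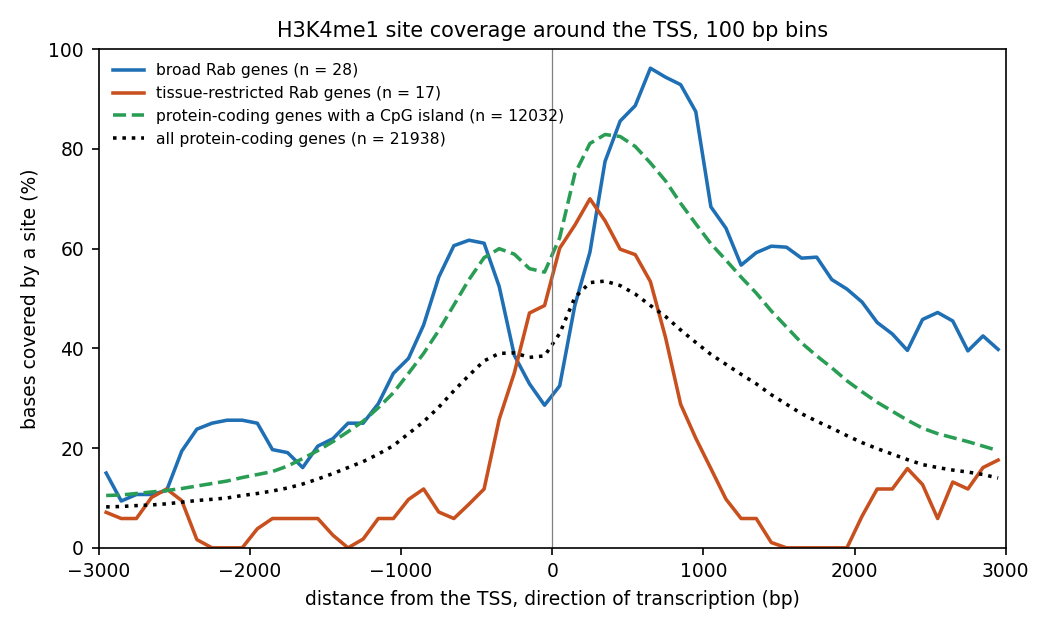
Bases covered by H3K4me1 sites (%) in 100 bp bins against the distance from the TSS (bp), for 28 broad and 17 tissue-restricted Rab genes and for protein-coding genes. The broad genes show a trough of 28.6% at the TSS and a downstream shoulder of 96.2%, and the tissue-restricted genes a single peak of 70.0%.

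Rab8a and Rab8b direct vesicles to the plasma membrane, and Rab8a also acts in building the primary cilium. Rab8a (ENSMUSG00000003037.16, chr8:72161200-72183904, plus strand) had 4 sites within 3 kb of its TSS, at positions -3720 to -2929, -2567 to -1876, -1061 to -415 and 259 to 2308. The nearest upstream site (chr8:72160139-72160785) was 647 bp wide and the downstream one (chr8:72161459-72163508) 2050 bp. Between them lay a gap of 673 bp over the TSS, all of it inside a CpG island that ran from -583 to 462. The downstream site was the only site over the 22705 bp gene body and covered 9.03% of it.

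Rab8b (ENSMUSG00000036943.9, chr9:66843664-66919687, minus strand) shared the layout at the TSS and differed over the body. Its gap of 394 bp, from -366 to 29, was the narrowest of the Rab genes, between sites of 331 and 912 bp. Its body of 76024 bp held 17 sites that covered 21.8% of it, of which 13 were centred in the first intron of 56026 bp beyond 3 kb of the TSS.

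The 15 gaps varied in width around a value somewhat above that of other genes. The median gap was 582 bp (quartiles 440 and 722 bp), against 423 bp (339 and 572 bp) for the 3009 protein-coding genes of this layout. The gap of Rab8a was wider than 9 of the 15 and wider than 83.8% of the 3009. The narrowest after Rab8b were those of Rab5b, an early endosome Rab, with 407 bp, and of Rab10, which delivers GLUT4 vesicles, and Rab5c with 408 bp each. The widest were those of Rab2a, with 1030 bp, Rab1a, with 991 bp, and Rab14, with 847 bp.

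The wide gaps were not alike. In Rab2a, which acts between the endoplasmic reticulum (ER) and the Golgi, the gap reached from -963 to 68, so that the downstream site began next to the TSS. In Rab1a, the main Rab of ER to Golgi transport, it reached from -472 to 520, between sites of only 378 and 224 bp. In Rab14, which acts between endosomes and the Golgi, it reached from -241 to 607. The gap extended further upstream than downstream in 8 of the 15 Rab genes (53.3%), against 72.1% of the protein-coding genes of this layout. The downstream flank was the wider in 12 of 15 (80.0%), against 71.9%.

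Islands and gaps coincided in most of these genes. The TSS was inside an island in 14 of the 15 (93.3%), against 85% of the protein-coding genes of this layout. Islands held a median of 92.7% of the gap, against 91.1% over all genes of this layout. In 5 genes (33.3%, against 43.4%) the whole gap was island sequence. In Rab5b alone (6.67%, against 8.31%) none of it was, since its island began at 56.

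**Figure D4:**
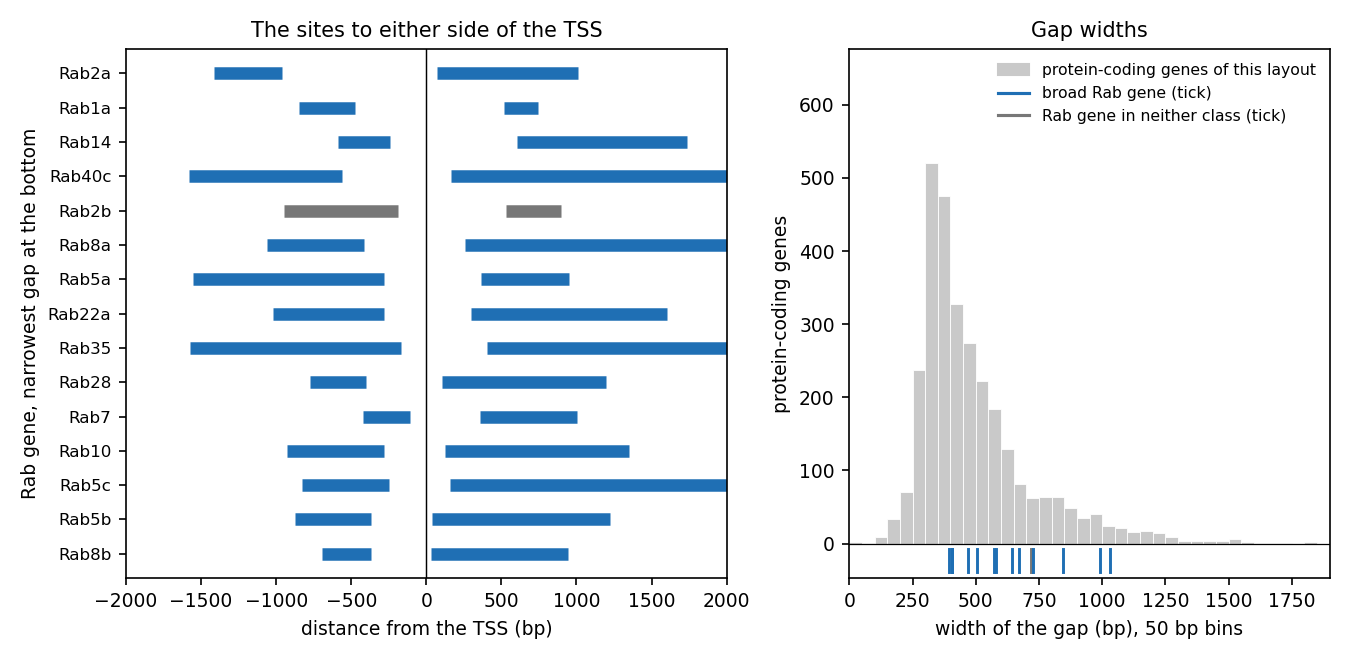
Left, the nearest site on each side of the TSS (bars, cut at -2000 and 2000 bp) for the 15 Rab genes with a free, flanked TSS, ordered by the gap between them. Right, the number of protein-coding genes by gap width (bp), with a tick below for each Rab gene, whose median of 582 bp compares with 423 bp.

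More of the sequence downstream of the TSS than upstream was in sites. Of the 53 Rab genes with a site within 1 kb, 42 (79.2%, 66.5 to 88.0%) had more covered bases in the 1 kb downstream, against 67.7% of the protein-coding genes with such a site, and 7 had more upstream. The median was 365 covered bases in the 1 kb upstream and 817 in the 1 kb downstream. It was 457 and 839 in the broad genes and 27 and 671 in the tissue-restricted genes, so within 1 kb the medians of the classes lay further apart in front of the TSS than behind it. Within 3 kb it was the other way round, with 619 and 241 covered bases upstream and 1924 and 713 downstream.

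By the step of transport, the genes of ER and Golgi traffic had a site within 1 kb in 8 of 9 cases. For this and the following counts by step, the share was 63.9% of all protein-coding genes and 92.7% of those with an island. The free, flanked layout was found at Rab1a, Rab2a and Rab2b, and the TSS lay inside a site at Rab30, Rab33b and Rab43. Rab33b, a Golgi Rab with a part in autophagy, was only just covered, by a site of 1151 bp from -1134 to 16, and at the start of its principal transcript, 46 bp downstream, the TSS was free and flanked. Rab1b and Rab6a, the latter a Rab of Golgi transport, had a site downstream only, which began at 184 and 597. At Rab6a an island of 1412 bp, the longest of the Rab genes, ran over the TSS and past the start of that site.

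Rab18, which acts at lipid droplets and the ER, was the only broad gene without a site within 1 kb of its TSS. Its nearest site was 439 bp wide and ended at -1679, and it had no island there and only 8 CpGs within 500 bp. The start of its principal transcript lies 31240 bp further downstream, and at that start a site lay within 1 kb downstream only. The absence at Rab18 therefore depends on which start is taken.

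The early endosome and recycling genes all had sites, in 12 of 12 cases within 1 kb, each with an island. The 3 genes for early endosome fusion, Rab5a, Rab5b and Rab5c, were all free and flanked, with gaps of 643, 407 and 408 bp. So were Rab14, Rab22a, with a gap of 582 bp, and Rab35, which acts in fast recycling and cytokinesis, with 571 bp. The TSS was inside a site at Rab4a, Rab11a, Rab21 and Rab31. Rab11b, a Rab of slow recycling like Rab11a, and Rab4b had a site downstream only, which began at 285 and 70.

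Rab31, which carries cargo from the trans-Golgi to endosomes, had the widest site of all Rab genes. It was 6994 bp wide (chr17:65768267-65775260) and ran from -2508 to 4485, across an island of 597 bp. The other broad genes with a covered TSS had sites of 1151 to 4539 bp. The median of the 8 was 2434 bp, against 1975 bp for covered TSSs of protein-coding genes with an island.

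Of the 7 genes of late endosomes, lysosomes and autophagy, all had a site within 1 kb and 4 had the TSS inside a site. The TSS was inside a site in 39.5% of all protein-coding genes and 56.6% of those with an island. Rab7, the main late endosome Rab, was free and flanked with a gap of 471 bp and had 12 sites over its body. Rab24, linked to autophagy, lay under a site of 4539 bp from -2459 to 2079 that covered 94.4% of its 2204 bp body. Rab34, which acts in lysosome positioning and cilium formation, lay under a site of 2996 bp, and Rab12, which acts between endosomes and lysosomes, under one of 1992 bp. Rab7b was covered, by 902 bp, without an island. Rab29, which recruits the kinase LRRK2 to membranes, had a site of 1140 bp that began at 120, and Rab9, which recycles receptors from late endosomes to the Golgi, had a site of 699 bp that began at 306.

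The exocytosis and cilium genes had a site within 1 kb in 6 of 6 cases. Beside Rab8a, Rab8b and Rab10, Rab28, known from cilia and photoreceptors, was free and flanked, with a gap of 507 bp. Rab13, which serves cell junctions, and Rab23, a regulator of Hedgehog signalling, were covered by sites of 3399 and 2987 bp. The site at Rab13 lay mostly in front of the TSS, from -2436 to 962, and that at Rab23 mostly behind it, from -430 to 2556. The principal transcript of Rab13 starts 7092 bp further downstream, inside another site of 2593 bp.

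Sites were also present at genes of specialised secretion, which fibroblasts are not known for. Of 9 genes of regulated secretion, 6 of them with an island, 7 had a site within 1 kb, and none was free and flanked. A site within 1 kb was found in 63.9% of all protein-coding genes and 92.7% of those with an island. For the free, flanked layout these shares were 13.7% and 23.4%. Rab3b, Rab3c and Rab3d were covered by sites of 1203, 1311 and 1046 bp, while Rab3a, the remaining gene of this subfamily, had none. Rab27a, which carries melanosomes and releases lytic granules, was covered by a site of 1340 bp from -549 to 790. Rab27b, its relative in exosome and granule release, was covered by one of 995 bp from -211 to 783.

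The rest of this group had little at the TSS taken. Rab26, of secretory granules, had a site of 387 bp that began at 779. Rab37, of mast cell granules, had a site of 208 bp that began at 210, only just above the narrowest width in the table of 200 bp. Rab44 had its nearest sites at -16409 and 9436. For the latter pair the principal transcript starts 62726 and 20911 bp further downstream, and there the TSS lay inside a site in both.

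The neuronal genes had sites within 1 kb in 3 of 4 cases. Rab6b, the neuronal relative of Rab6a, was covered by a site of 2383 bp, the widest at a tissue-restricted TSS, and Rab15 by one of 1001 bp that began at -27. Rab39b had a site of 599 bp that began at 37, just past the AT-rich stretch shown above. Rab33a had none within 1 kb, and its nearest site, of 342 bp, began at 2330. Rab9b, a relative of Rab9 and classed as tissue-restricted, had a site of 679 bp that began at 42.

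Of the epithelial pair, Rab17, which acts in transcytosis, was covered by a site of 560 bp, the narrowest over a Rab TSS. Rab25 had none closer than -3204 and 3214. Of the melanosome pair, Rab38 was covered by a site of 1253 bp, and Rab32 had a site of 2374 bp that began at 84. The covered TSSs of the 9 tissue-restricted genes thus had narrower sites than those of the 8 broad genes, with medians of 1203 bp (560 to 2383 bp) and 2434 bp (1151 to 6994 bp), and these ranges overlap.

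Of the 8 genes outside these groups, Rab9b among them, 5 had the TSS inside a site. This layout was found in 39.5% of all protein-coding genes and 56.6% of those with an island. Rab40b and Rab40c, adaptors of ubiquitin ligases with a SOCS box, differed, with Rab40b under a site of 1369 bp that began at -38 and Rab40c free and flanked with a gap of 726 bp. Rab20, of endosomes and phagosomes, lay under a site of 3562 bp, and Rab36, Rab39 and Rab42 under sites of 1446, 1224 and 756 bp. Rab19 had its nearest sites at -3303 and 25163 and none over its body.

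Relatives with the same number did not always share a layout. In 14 subfamilies with more than 1 gene, 31 genes in all, every gene had a site within 1 kb in 12 subfamilies and some but not all in 2, Rab3 and Rab33. The layout was the same in all genes of 5 subfamilies. These were the free, flanked Rab2, Rab5 and Rab8 genes, the covered Rab27 genes and the Rab9 genes with a downstream site. Over all 59 Rab genes, 89.8% had a site within 1 kb. The TSS was covered in 45.8%, free and flanked in 25.4%, and had a downstream site only in 18.6%. Groups of unrelated genes were not counted, so whether relatives are more or less alike than other Rab genes was not tested.

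Sites also lay over the gene bodies. At least 1 site touched the body of 57 of 59 Rab genes (96.6%, 88.5 to 99.1%), and the exceptions were Rab3a and Rab19. This compares with 72.8% of all protein-coding genes and 94.6% of those with an island, so it was close to the share of genes with an island. The median share of the body in sites was 12.5%, against 6.47% over all protein-coding genes and 11.9% over those with an island. It was 18.8% in the broad and 6.40% in the tissue-restricted genes, whose median body lengths were 25322 and 24949 bp. Beyond 3 kb of the TSS the medians were 6.99% and 3.93%, against 3.52% for protein-coding genes with an island.

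**Figure D5:**
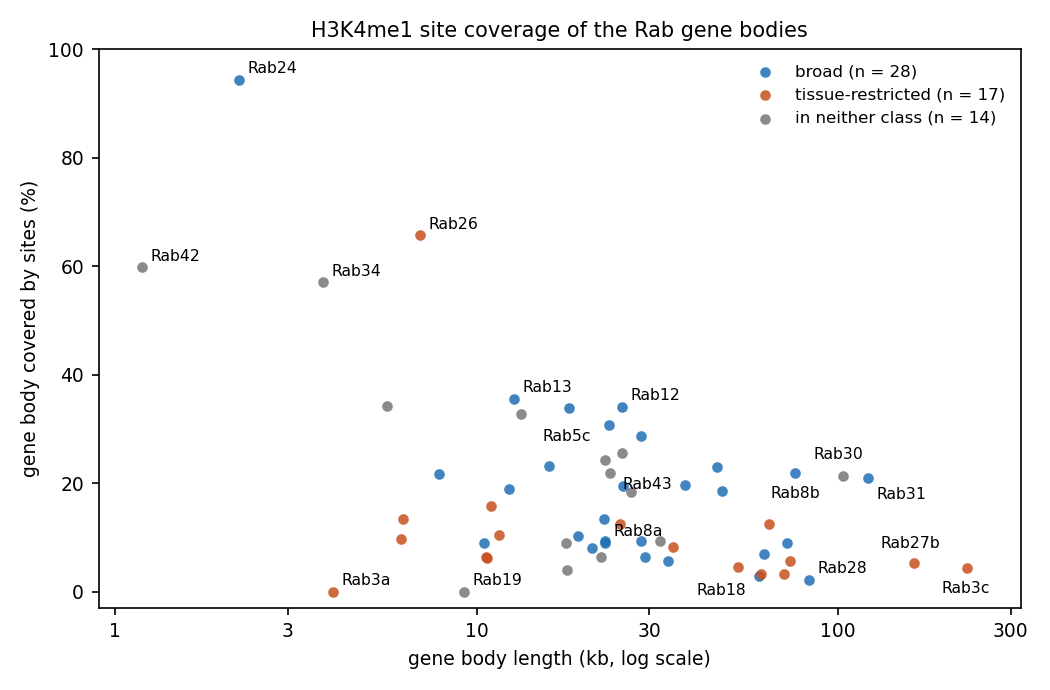
Share of the gene body covered by H3K4me1 sites (%) against the length of the body (kb, log scale) for the 59 Rab genes by class. The short Rab24 has 94.4% and the long Rab3c 4.35%, and the broad genes lie higher, with a median of 18.8%, than the tissue-restricted genes, with 6.40%.

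The largest shares belonged mainly to short genes. After Rab24 came Rab26, with 65.7% of 6970 bp, Rab42, with 59.8% of 1189 bp, Rab34, with 57.0% of 3764 bp, and Rab13, with 35.6% of 12691 bp. Rab26 stood out among the tissue-restricted genes, since its cover came from sites away from the TSS, of 3303 bp at 2637 to 5939 and of 3204 bp at 6504 to 9707. The latter ran past the end of the gene.

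The most sites lay over long genes. Rab30, a Golgi Rab, held 24 sites over 102933 bp, Rab31 18 over 121024 bp and Rab8b 17 over 76024 bp, and these covered 21952, 25447 and 16578 bp of their bodies. Rab27b held 14 over 162475 bp and Rab3c 13 over 226810 bp, the longest Rab gene, but these covered only 5.33% and 4.35%. The 3 genes with most sites thus also had the larger share, 21.3% at Rab30 and 21.8% at Rab8b. The widest sites over Rab bodies were that of Rab31, the 4539 bp of Rab24, 4162 bp over the TSS of Rab43, 4087 bp over that of Rab30, and 3935 bp in Rab5c, which alone of the 5 lay away from the TSS, at 15202 to 19136.

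Of 286 sites over Rab bodies, 72 were centred within 3 kb of the TSS (25.2%, against 19.0% of the sites over all protein-coding genes). Beyond 3 kb, 104 (36.4%, against 24.1%) were centred in the first intron of the principal transcript and 85 (29.7%, against 45.5%) in a later intron. The first intron held 66 of 149 sites of the broad genes and 13 of 77 of the tissue-restricted genes, and later introns 37 and 36. The latter count rests on Rab3c and Rab27b, with 11 each, and without this pair the tissue-restricted genes had 13 of 50 sites in the first intron and 14 in later ones. The first intron of Rab27b is only 130 bp long, so none of its sites beyond 3 kb could be centred there. The counts over all Rab genes and over the broad genes also lean on a few genes. Rab30, Rab8b, Rab31 and Rab7 held 15, 13, 10 and 9 of the 104 first-intron sites, and of these only Rab30 is not a broad gene. The larger first-intron shares are therefore not a trait of the typical Rab gene.

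The partners of the Rab proteins were listed as 120 genes. A site lay within 1 kb of the TSS in 106 of them (88.3%), between the 63.9% of all protein-coding genes and the 92.7% of those with an island, and 99 (82.5%) had an island. The TSS was free and flanked in 22 (18.3%, against 13.7% and 23.4%) and inside a site in 71 (59.2%, against 39.5% and 56.6%). Of 6 genes for prenylation and recovery from membranes, 5 had a site within 1 kb. Among them, Rabggtb, a subunit of the enzyme that attaches the lipid anchor, Chml, an escort protein, and Gdi2, which extracts Rab proteins from membranes, were free and flanked, with gaps of 307, 578 and 299 bp. The gene without a site was Chm, also an escort protein, with no site over its body either. Of 36 exchange factors 33 (91.7%) had a site within 1 kb, and Rabgef1, which activates Rab5, was free and flanked with a gap of 370 bp and 16 sites over its body.

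Of 33 GTPase-activating proteins 30 (90.9%) had a site within 1 kb, and of 45 effectors 38 (84.4%), with islands at 29 and 34 of them. The effectors without a site within 1 kb were Rims1 and Rph3a, which act with Rab3 proteins at synapses, Myo5b, a motor of Rab11 vesicles in epithelia, and Myrip, Sytl3, Sytl5 and Rph3al. Relatives of these, such as Rims2, Sytl1 and Sytl2, had the TSS inside a site. Rims1 and Rph3a had no site over their bodies, while Sytl3 and Rph3al had one at 1 to 3 kb of the TSS. The median share of the body in sites was 22.3% for prenylation and recovery, 8.90% for exchange factors, 7.02% for GTPase-activating proteins and 8.95% for effectors. It was 6.47% over all protein-coding genes and 11.9% over those with an island. Only the prenylation and recovery genes lay above the latter.

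Marker genes were used to see how far a site speaks for the cell type. A site lay within 1 kb of the TSS in 10 of 12 fibroblast genes, in 6 of 6 epithelial, 5 of 6 neuronal, 3 of 6 melanocyte and 0 of 6 blood genes, beside 63.9% of all protein-coding genes. The median share of the body in sites was 40.7% for the fibroblast genes, including 92.7% at Col1a1, and 7.20%, 4.02%, 5.19% and 2.73% for the others in that order, beside 6.47% over all protein-coding genes. Fibroblast collagen Col3a1 had its nearest site at 1 to 3 kb and Lum none. Sites near the TSS were thus also found at most of the epithelial and neuronal markers listed, and a site alone does not show that a gene is used in fibroblasts. RNA levels of the Rab genes were not analysed here.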

How the data were processed

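H3K4me1 ChIP-seq libraries of NG3 cells were trimmed by the authors with Trim Galore, mapped by BWA to mm10 and filtered with SAMtools. Replicates were joined with Picard, and broad peaks called with MACS. Versions and thresholds are not given in the sources used here. The deposited values are positions in bases, and the table holds no value per library, so the edgeR test kept for counts per library could not be run. The Rab genes, classes and gene lists were chosen with earlier results of these data known, from general knowledge of the proteins.

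Starts were changed from counting at 0 to counting at 1, and 36 sites off the chromosomes were left out. Overlaps, coverage and distances came from scripts in Python (3.11.15) that used numba (0.67.0), scipy (1.17.1) and numpy (2.4.6). A site counted in a window from 1 shared base. CpG islands were called on repeat-masked GRCm38.p6 sequence (score 17 per CpG and -1 per other base, length over 200 bp, GC at least 50%, observed to expected CpG over 0.6), which gave 16943. The principal transcript was taken from the APPRIS tags. The functions were tested on simulated data. Named with full values were Rab8a, Rab8b, broad genes without a site within 1 kb, all tissue-restricted genes, the 3 widest and 3 narrowest gaps, and the 5 genes leading in widest site, share of the body and number of sites. Other Rab genes and partner genes were named as examples after their values were seen.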

Additional observations from a re-analysis of the deposited data

How the results depend on the processing

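Of 43 alternatives to 9 results, 39 left a count within 1.5 times, the gap within 1 SD, a share of genes within its Wilson interval and the share of the body within the quartiles of the Rab genes. This takes in a drop from 15 to 10 free, flanked TSSs with flanks within 500 bp, which lies right at 1.5 times. With only sites of at least 500 bp the free, flanked TSSs fell from 15 to 8, since narrow flanks are then missing. With the TSS of the APPRIS principal transcript, or with any TSS, the broad genes with a site within 1 kb came to 100%, through Rab18. The median share of the body in sites was 5.69% when only the body beyond 3 kb from the TSS was counted, a construction that leaves out the promoter sites. No paired analysis was possible because the sites analysed here are positions pooled over the libraries, and for the same reason no replicate could be left out and no test per time point was run. The unknown depth limits the sites that could be found, and a gap between sites shows only that no peak was called there.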

Other observations

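Another gene started within 1 kb upstream on the opposite strand at 6 of the 59 Rab genes (10.2%), against 10.8% of all protein-coding genes and 17.1% of those with an island. Of these 6, 3 had a free, flanked TSS, against 36.3% of all protein-coding genes with such a neighbour. The most upstream start of Rab13 lay 44 bp from Rps27, a ribosomal protein gene, and a single site of 3399 bp covered both starts. The principal transcript of Rab13 starts 7092 bp further downstream, inside another site. The partner at Rab8a was Gm16091, 345 bp away, whose start lay inside the gap of 673 bp, and at Rab35 it was 1110006O24Rik, 92 bp away, inside a gap of 571 bp. Rab22a had Ppp4r1l-ps at 120 bp, inside its gap of 582 bp. At Rab21 and Rab30 the partners Gm10752 and 4632427E13Rik started 52 and 135 bp away, inside the site that covered the Rab TSS.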
